A study of Mus musculus with 3 samples.

Results

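Ankrd37 and 9 further genes of the response to low oxygen were followed across cell types in mouse dendritic cell cultures that differed in glutamine. The members were taken by symbol (Ankrd37, Bnip3, Bnip3l, Mif, P4ha1, Egln1, Egln3, Kdm3a, Vegfa and Hif1a), and all 10 were found among the 32285 genes of the matrices. They were chosen by earlier results on these same libraries, in which levels of Ankrd37 and other genes of this kind were lower in the treated cells than in control, so their differences from control are a description with no test. The cultures were derived from wild-type C57BL/6 mice with FLT3L, a cytokine on which dendritic cell development depends. The library labelled 50 µM glutamine had that low concentration. The DON library had 2 mM glutamine and 1 µM DON (6-diazo-5-oxo-L-norleucine, which resembles glutamine and inhibits glutamine-using enzymes), and the control library had 2 mM glutamine alone. Each group was 1 library of cells scraped from plates. How many mice and cultures stand behind a library is not given in the sources used here. With 1 library in each group there is no test between groups, and all intervals are exact 95% intervals that cover counting error only.

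Hypoxia-inducible factor 1 pairs the Hif1a protein with Arnt and switches on genes when oxygen is short. When oxygen is ample, prolyl hydroxylases, among them those encoded by Egln1 and Egln3, mark Hif1a protein for destruction through Vhl, and they consume oxygen and alpha-ketoglutarate, which cells can make from glutamine. Hif1a is therefore set largely at the protein level, which RNA counts do not show. The factor turns on genes of glycolysis, of mitochondrial turnover and of blood vessel growth, and it binds the core motif ACGTG or GCGTG.

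Promoter windows are shown for the 5 members called lower in most cell classes and, for contrast, for Hif1a, whose RNA level differed little. They are from RefSeq (GRCm38.p6), run 5′ to 3′ on the gene's strand and span 250 bases before to 50 after the gene's start. Capitals mark ACGTG or GCGTG on either strand (read as CACGT or CACGC where the match lies on the other strand), and neighbouring matches may overlap. In the order shown the windows are chr8:45999801-46000100 (minus strand), chr7:138909457-138909756 (minus), chr10:75860228-75860527 (minus), chr10:59323046-59323345 (plus), chr12:54203825-54204124 (minus) and chr12:73907617-73907916 (plus).
Ankrd37: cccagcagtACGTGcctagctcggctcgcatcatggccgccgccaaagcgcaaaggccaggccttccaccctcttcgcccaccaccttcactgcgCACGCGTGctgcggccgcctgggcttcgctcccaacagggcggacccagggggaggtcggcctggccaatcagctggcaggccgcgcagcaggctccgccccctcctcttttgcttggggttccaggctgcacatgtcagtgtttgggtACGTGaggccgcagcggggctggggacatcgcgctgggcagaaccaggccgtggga
Bnip3: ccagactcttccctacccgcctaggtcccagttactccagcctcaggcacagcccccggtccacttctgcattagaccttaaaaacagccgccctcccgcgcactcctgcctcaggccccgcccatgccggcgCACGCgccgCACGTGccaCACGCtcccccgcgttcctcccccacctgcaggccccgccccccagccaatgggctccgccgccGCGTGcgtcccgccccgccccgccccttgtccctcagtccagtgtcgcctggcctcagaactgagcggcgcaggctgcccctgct
Mif: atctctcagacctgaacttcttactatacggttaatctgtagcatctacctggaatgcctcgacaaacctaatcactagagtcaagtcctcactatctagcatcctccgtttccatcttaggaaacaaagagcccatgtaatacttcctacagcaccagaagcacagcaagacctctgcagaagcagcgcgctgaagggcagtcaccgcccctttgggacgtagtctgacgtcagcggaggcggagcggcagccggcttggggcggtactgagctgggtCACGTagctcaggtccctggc
P4ha1: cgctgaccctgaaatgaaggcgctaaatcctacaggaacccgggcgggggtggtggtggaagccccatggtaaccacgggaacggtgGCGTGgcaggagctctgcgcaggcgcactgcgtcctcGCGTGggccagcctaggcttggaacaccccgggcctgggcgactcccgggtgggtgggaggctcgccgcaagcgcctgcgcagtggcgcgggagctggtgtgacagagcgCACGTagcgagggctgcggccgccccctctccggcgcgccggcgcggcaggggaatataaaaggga
Egln3: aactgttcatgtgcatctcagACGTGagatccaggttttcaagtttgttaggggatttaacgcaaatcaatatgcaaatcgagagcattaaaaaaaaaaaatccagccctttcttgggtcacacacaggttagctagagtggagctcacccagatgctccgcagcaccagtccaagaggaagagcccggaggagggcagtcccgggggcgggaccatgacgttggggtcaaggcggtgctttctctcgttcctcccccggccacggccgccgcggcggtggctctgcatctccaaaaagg
Hif1a: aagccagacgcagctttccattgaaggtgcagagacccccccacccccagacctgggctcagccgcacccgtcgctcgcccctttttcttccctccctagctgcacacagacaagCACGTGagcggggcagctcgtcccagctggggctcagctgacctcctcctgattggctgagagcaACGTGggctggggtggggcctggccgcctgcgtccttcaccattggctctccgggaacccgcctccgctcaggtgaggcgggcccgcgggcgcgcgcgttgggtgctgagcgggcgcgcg

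The Ankrd37 window held 4 matches, at 241, 155, 152 and 6 bases before the start, of which those at 155 and 152 overlap. The Bnip3 window held 5 matches, those of P4ha1 and Hif1a 3 each, that of Egln1 2, and those of Mif and Egln3 1 each. For Kdm3a, 1 of 3 annotated starts had 1 match, and for Vegfa 1 of 2 starts had 2. Of all 32851 windows of the same length, 43.8% held at least 1 match and 20.6% at least 2. Windows were found for 9 of the 10 members, Bnip3l being the exception. A match describes the letters of the window only. GENCODE vM21 puts the outermost start at 46005707 for Ankrd37 and 73901375 for Hif1a, outside the windows shown, whereas its starts for the other 4 genes lie inside theirs.

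The libraries held 92002827 UMIs at 50 µM, 87611658 with DON and 89340379 in control, and 9347, 8690 and 9510 cells were used in that order. Between 20 and 31 barcodes were shared by any pair of libraries. A cell entered a class when it had UMIs of at least 3 markers of that class and did not meet this for another class. This gave 196 cDC1 (type 1 conventional dendritic cells) at 50 µM, 491 with DON and 1154 in control. In the same order it gave 1282, 998 and 1274 cDC2 (type 2 conventional dendritic cells) and 1896, 2218 and 2374 pDC (plasmacytoid dendritic cells). Mature DC, progenitors, neutrophils, B lineage cells, ungated cycling cells (UMIs of at least 3 of 9 cell cycle genes) and other ungated cells (fewer than 3) complete the 9 classes that had at least 50 cells in every library. Each gate had markers of its own among its 10 leading genes, but gating selects for these markers, so this is no check of the labels. Levels are CPM, the UMIs of a gene scaled to the total of its class and library, and with 3' tags they are not scaled by gene length. Ratios are log2 of the level plus 5 CPM in one library over the same in another, and a gene of at least 5 CPM in either was called lower or higher at 1.5-fold.

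Ankrd37, which encodes a protein of ankyrin repeats, was far lower at 50 µM than in control in every class, and with DON it lay between them. In pDC it had 4.60 CPM (3.53 to 5.89) at 50 µM, 34.7 CPM (31.9 to 37.6) with DON and 117 CPM (111 to 123) in control. In cDC2 it had 4.28 CPM (3.14 to 5.69) at 50 µM, 32.9 CPM (29.5 to 36.7) with DON and 79.7 CPM (74.5 to 85.3) in control, and in cDC1 5.63 CPM (2.81 to 10.1) at 50 µM, 20.3 CPM (16.9 to 24.3) with DON and 54.7 CPM (50.7 to 59.00) in control. Within each of these classes the 3 intervals did not overlap. The log2 ratios over control were -3.67 in pDC, -3.19 in cDC2 and -2.49 in cDC1 at 50 µM, and -1.62, -1.16 and -1.24 with DON. The level at 50 µM was lower than with DON by 7.54-fold (5.80 to 9.96) in pDC, 7.70-fold (5.66 to 10.7) in cDC2 and 3.61-fold (1.95 to 7.43) in cDC1. The folds are of levels as measured, with free RNA not subtracted, and the 50 µM interval overlapped that of mature DC, 2.49 CPM (0.514 to 7.28), in each of these classes. The gene lies on the minus strand of chromosome 8, from 45996902 to 46005707 in GENCODE vM21 (GRCm38).

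The order of 50 µM below DON below control held for Ankrd37 in 9 of 9 classes. In mature DC the treated libraries were not separated, at 2.49 CPM at 50 µM, 5.39 with DON and 18.1 in control from 3, 8 and 45 UMIs. Within control, Ankrd37 differed between classes. B lineage cells had 164 CPM (117 to 224), pDC 117 CPM (111 to 123), ungated cycling cells 109 CPM (104 to 115) and other ungated cells 108 CPM (102 to 115), with overlapping intervals between neighbours. A step lower, cDC2, neutrophils, progenitors and cDC1 followed in that order, again with overlapping neighbours, and mature DC were lowest at 18.1 CPM (13.2 to 24.2), clear of all others. At 50 µM the classes ran from 2.38 CPM in progenitors to 11.5 CPM in B lineage cells, and every interval overlapped that of the next class. Among the 3 classes with fewer cells, monocytes or macrophages had 0 CPM at 50 µM, 12.3 with DON and 46.6 in control, T, NK or innate lymphoid cells 21.5 CPM at 50 µM, 46.2 with DON and 59.2 in control and basophils or mast cells 0 CPM at 50 µM, 0 with DON and 55.1 in control, from at most 15 UMIs each.

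**Figure D1:**
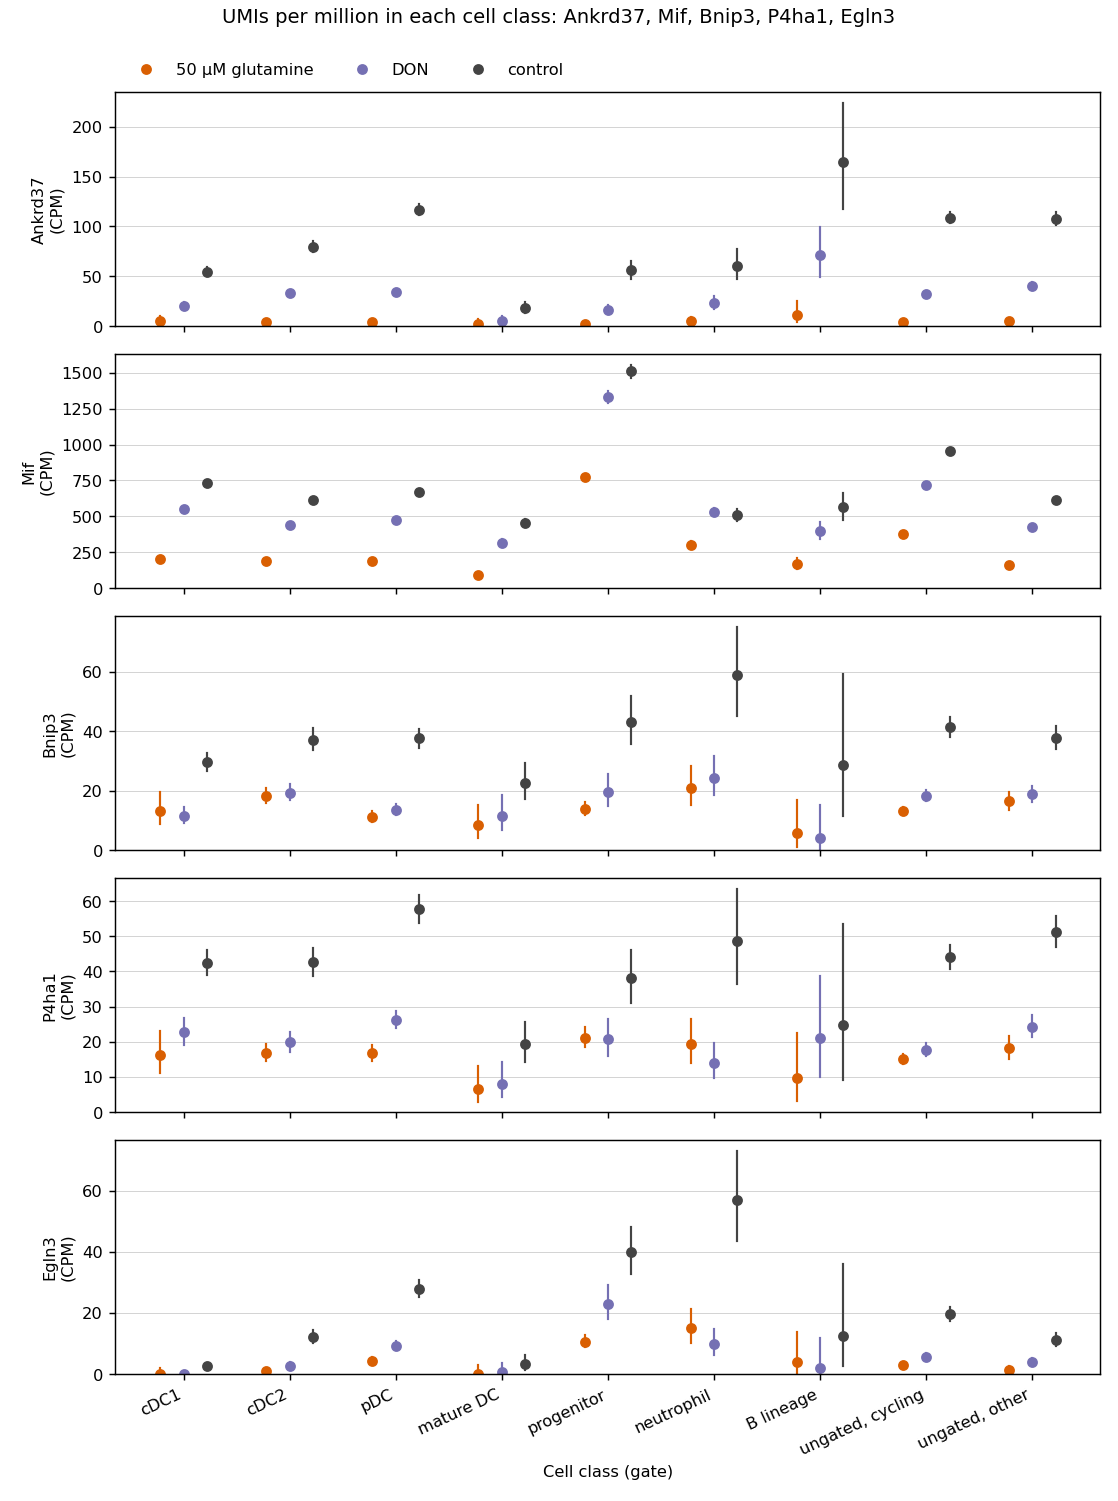
Level (CPM of the class, linear axes from 0) of Ankrd37, Mif, Bnip3, P4ha1 and Egln3 in 9 cell classes, with a point for the 50 µM glutamine, DON and control libraries from left to right and lines for exact Poisson 95% intervals. Ankrd37 runs from 2.38 to 11.5 CPM at 50 µM, from 5.39 to 71.3 with DON and from 18.1 to 164 in control, whereas the Bnip3 points of both treated libraries lie close together.

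Mif encodes macrophage migration inhibitory factor, a cytokine that binds CD74 on the cell surface. It had 200 CPM (181 to 221) at 50 µM, 552 CPM (533 to 571) with DON and 733 CPM (718 to 748) in control in cDC1, and 186 CPM at 50 µM, 473 with DON and 672 in control in pDC. The gap to control was wide at 50 µM and narrow with DON. Its ratio at 50 µM was -1.85 in cDC1, -1.67 in cDC2 and -1.83 in pDC, and it was called lower in 9 of 9 classes. With DON the ratios were -0.41, -0.49 and -0.50, and it was called lower in 0 of 9, although the interval of the ratio lay below 1 in 8. Neutrophils were the exception, with 301 CPM at 50 µM, 531 with DON and 508 in control. Among the 9 classes Mif was highest in progenitors in each library, at 772 CPM at 50 µM, 1330 with DON and 1510 in control.

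Bnip3 encodes a receptor on the outer mitochondrial membrane that recruits the autophagy machinery. It had 11.2 CPM (9.48 to 13.1) at 50 µM, 13.5 CPM (11.8 to 15.3) with DON and 37.5 CPM (34.4 to 40.8) in control in pDC. In cDC2 it had 18.2 CPM (15.8 to 20.9) at 50 µM, 19.3 CPM (16.7 to 22.2) with DON and 37.1 CPM (33.5 to 40.9) in control, and in cDC1 13.3 CPM (8.69 to 19.5) at 50 µM, 11.5 CPM (8.94 to 14.5) with DON and 29.5 CPM (26.6 to 32.7) in control. Both treated libraries were below control and near each other. The ratio of 50 µM over DON was 0.832 (0.673 to 1.03) in pDC, 0.943 (0.770 to 1.16) in cDC2 and 1.16 (0.707 to 1.84) in cDC1, intervals that include 1 and also leave room for differences of their own width. Bnip3 was called lower than control in 9 of 9 classes under each treatment, with the interval of the ratio below 1 in 9. In B lineage cells, which had few UMIs, it had 5.77 CPM (1.19 to 16.9) at 50 µM, 4.20 CPM (0.508 to 15.2) with DON and 28.7 CPM (11.6 to 59.2) in control. These level intervals overlap, and the calls there held in 9 of 10 settings at 50 µM and 8 of 10 with DON.

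P4ha1 encodes a catalytic subunit of the prolyl hydroxylase that modifies collagen. In pDC it had 16.7 CPM (14.6 to 19.01) at 50 µM, 26.3 CPM (23.9 to 28.9) with DON and 57.6 CPM (53.8 to 61.7) in control, 3 intervals without overlap. In cDC2 it had 16.8 CPM at 50 µM, 19.8 with DON and 42.7 in control and in cDC1 16.4 CPM at 50 µM, 22.7 with DON and 42.5 in control. It was called lower in 9 of 9 classes at 50 µM and in 8 with DON, and the interval of the ratio lay below 1 in 8 under each treatment. In B lineage cells, with 5 to 10 UMIs in each library, the DON ratio was -0.19. The levels there were 9.62 CPM (3.12 to 22.4) at 50 µM and 24.6 CPM (9.04 to 53.6) in control, with overlapping intervals. In progenitors the calls held in 7 of 10 settings under each treatment.

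Egln3, a hydroxylase gene that the factor itself induces, was rare in conventional dendritic cells. In pDC it had 4.23 CPM (3.20 to 5.48) at 50 µM, 9.21 CPM (7.82 to 10.8) with DON and 27.9 CPM (25.2 to 30.8) in control, and in cDC2 1.09 CPM (0.564 to 1.91) at 50 µM, 2.59 CPM (1.69 to 3.79) with DON and 12.2 CPM (10.2 to 14.5) in control. Neutrophils had 15.04 CPM (10.2 to 21.3) at 50 µM, 9.82 CPM (6.22 to 14.7) with DON and 56.8 CPM (43.6 to 72.9) in control, with DON here below 50 µM in level but with overlapping intervals. In cDC1 control had 31 UMIs (2.52 CPM), DON 1 and 50 µM 0, which allows up to 1.53 CPM, so no fold is given. Egln3 reached 5 CPM in 7 classes and was called lower in 7 of 7 under each treatment. In B lineage cells the calls rest on few UMIs. The levels there were 3.85 CPM (0.466 to 13.9) at 50 µM, 2.10 CPM (0.0531 to 11.7) with DON and 12.3 CPM (2.54 to 35.99) in control, with overlapping intervals. These calls held in 7 of 10 settings at 50 µM and 9 of 10 with DON. The 76 basophils or mast cells of control had 85.2 CPM (49.6 to 136), an interval that overlaps that of control neutrophils.

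**Figure D2:**
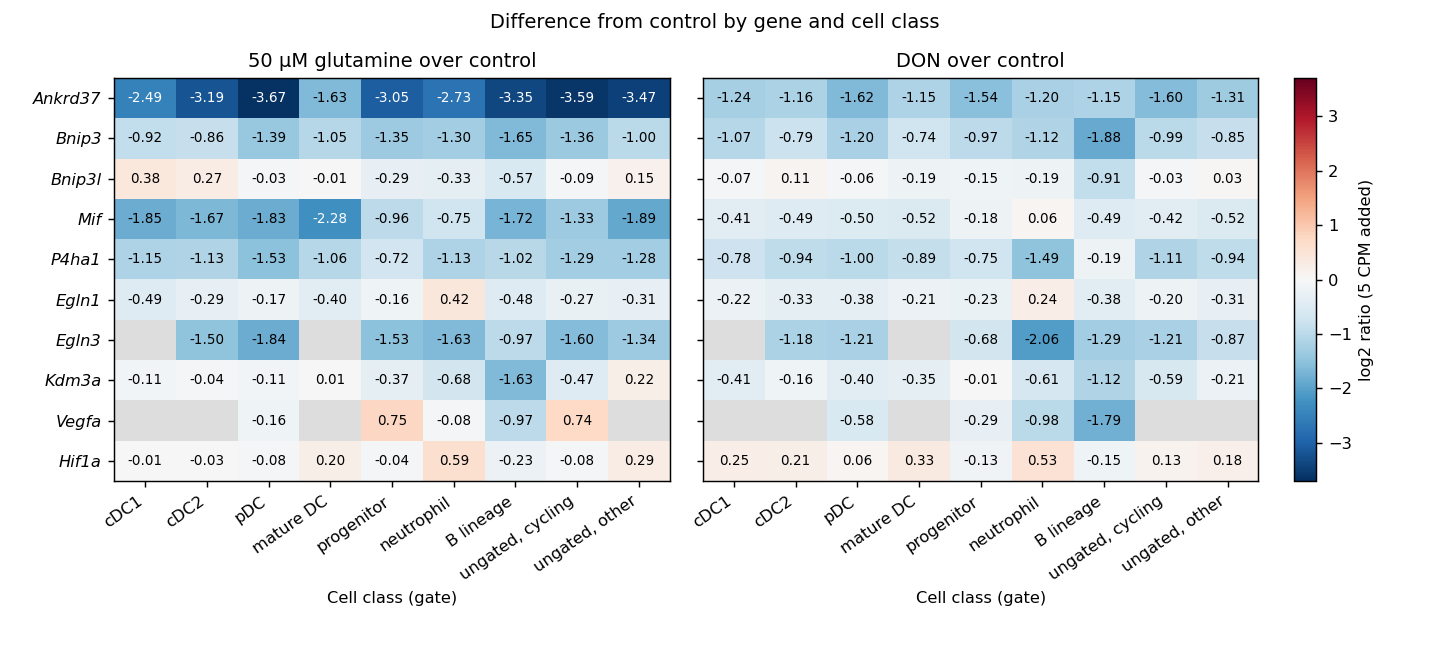
Log2 ratio of CPM (5 CPM added) of the 10 members, down the page, in 9 cell classes, across, for 50 µM glutamine over control (left) and DON over control (right). Blue is lower and red higher than control, and grey marks members under 5 CPM in both libraries; Ankrd37 reaches -3.67 in pDC at 50 µM, and Mif with DON ends at 0.06 in neutrophils.

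Egln1 encodes the hydroxylase that does most of the marking of Hif1a in many tissues. In cDC1 it had 57.3 CPM (47.2 to 68.9) at 50 µM, 70.3 CPM (63.8 to 77.3) with DON and 82.6 CPM (77.6 to 87.8) in control, and in pDC 70.97 CPM (66.5 to 75.6) at 50 µM, 61.1 CPM (57.4 to 64.95) with DON and 80.8 CPM (76.1 to 85.6) in control. The treated levels were below control, by less than 1.5-fold in each of these. Over the classes it was called lower in 0 of 9, with the interval of the ratio below 1 in 5 under each treatment. Neutrophils had 56.8 CPM at 50 µM, 49.5 with DON and 41.3 in control.

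Hif1a RNA was not lower. In cDC1 it had 38.4 CPM (30.2 to 48.1) at 50 µM, 46.98 CPM (41.7 to 52.8) with DON and 38.7 CPM (35.3 to 42.4) in control, in cDC2 44.2 CPM (40.4 to 48.3) at 50 µM, 52.9 CPM (48.5 to 57.6) with DON and 45.2 CPM (41.2 to 49.4) in control and in pDC 89.8 CPM (84.8 to 95.01) at 50 µM, 99.3 CPM (94.6 to 104) with DON and 95.2 CPM (90.1 to 100) in control. The 50 µM and control intervals overlapped in all 3 classes. It was called lower in 0 of 9 classes under either treatment and higher in 1, neutrophils at 50 µM, with 54.8 CPM at 50 µM, 52.5 with DON and 34.8 in control. With DON the interval of the ratio lay above 1 in 5 of 9 classes, and 0 of 9 were called higher. The neutrophil ratio at 50 µM was 0.59, and it was 0.25 at the lowest of the settings tried. In that gate 30.1% of all genes were called higher at 50 µM. Its own markers and those of pDC also differed there: the 9 neutrophil markers summed to 108887 CPM at 50 µM, 151705 with DON and 255589 in control (0, 0 and 0 of them at 0), and the 8 pDC markers summed to 495 CPM at 50 µM, 187 with DON and 73.3 in control (1, 0 and 2 of them at 0). The median mitochondrial percentage of neutrophils was 1.97 at 50 µM, 1.85 with DON and 0.996 in control. The part of these in the neutrophil values of any member was not tested.

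Bnip3l encodes a close relative of Bnip3 with a like role at mitochondria, yet its levels did not follow those of Bnip3. In pDC it had 153 CPM (147 to 160) at 50 µM, 151 CPM (145 to 157) with DON and 157 CPM (151 to 164) in control, and in cDC1 112 CPM (97.7 to 128) at 50 µM, 80.5 CPM (73.4 to 87.97) with DON and 84.8 CPM (79.8 to 90.1) in control. Its 50 µM ratio was -0.03 in pDC, 0.38 in cDC1 and 0.27 in cDC2, and 0 of 9 classes passed 1.5-fold. With DON it was called lower in B lineage cells only, at -0.91, from 51 and 50 UMIs in DON and control.

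Kdm3a encodes a demethylase of histone H3 lysine 9. It had 19.9 CPM at 50 µM, 15.3 with DON and 21.9 in control in cDC1, 18.5 CPM at 50 µM, 16.5 with DON and 19.1 in control in cDC2 and 26.8 CPM at 50 µM, 20.9 with DON and 29.3 in control in pDC. It was called lower at 50 µM in 2 classes, neutrophils (-0.68) and B lineage cells (-1.63). With DON it was called lower in these, at -0.61 and -1.12, and in ungated cycling cells at -0.59, at the 1.5-fold limit. The DON calls held in 5 of 10 settings in neutrophils, 9 in B lineage cells and 4 in ungated cycling cells. B lineage cells had 19.2 CPM (9.22 to 35.4) at 50 µM, 29.4 CPM (16.1 to 49.3) with DON and 69.8 CPM (40.7 to 112) in control. The DON and control intervals overlap there. With cells thinned to 2000 UMIs the neutrophil DON ratio of Kdm3a was 0.0020.

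Vegfa encodes a secreted factor that drives blood vessel growth, and it was higher at 50 µM in 2 classes. Progenitors had 20.7 CPM (18.1 to 23.7) at 50 µM, 7.46 CPM (4.67 to 11.3) with DON and 10.2 CPM (6.80 to 14.8) in control. Ungated cycling cells had 10.3 CPM (9.07 to 11.6) at 50 µM, 2.18 CPM (1.59 to 2.92) with DON and 4.16 CPM (3.17 to 5.37) in control. The ratios of 50 µM over control were 0.75 and 0.74, and with 20 CPM added in place of 5 they were 0.43 and 0.32. The order of the libraries in progenitors differed with cell cycle UMIs. At or below their median share Vegfa had 18.8 CPM at 50 µM, 19.6 with DON and 11.7 in control, from 88, 17 and 16 UMIs. Above it the levels were 22.3, 2.40 and 8.78 CPM, from 130, 5 and 12 UMIs. The progenitor gate held 621 cells at 50 µM, 143 with DON and 161 in control, and in it the 8 pDC markers summed to 589 CPM at 50 µM, 45.8 with DON and 49.7 in control (1, 1 and 1 of them at 0). The part of this in the Vegfa values was not tested. In pDC the levels were 6.38 CPM at 50 µM, 3.54 with DON and 7.73 in control, and cDC1 held 1 Vegfa UMI in each library. With DON it was called lower in neutrophils (-0.98) and, from at most 3 UMIs in a library, in B lineage cells under both treatments.

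**Figure D3:**
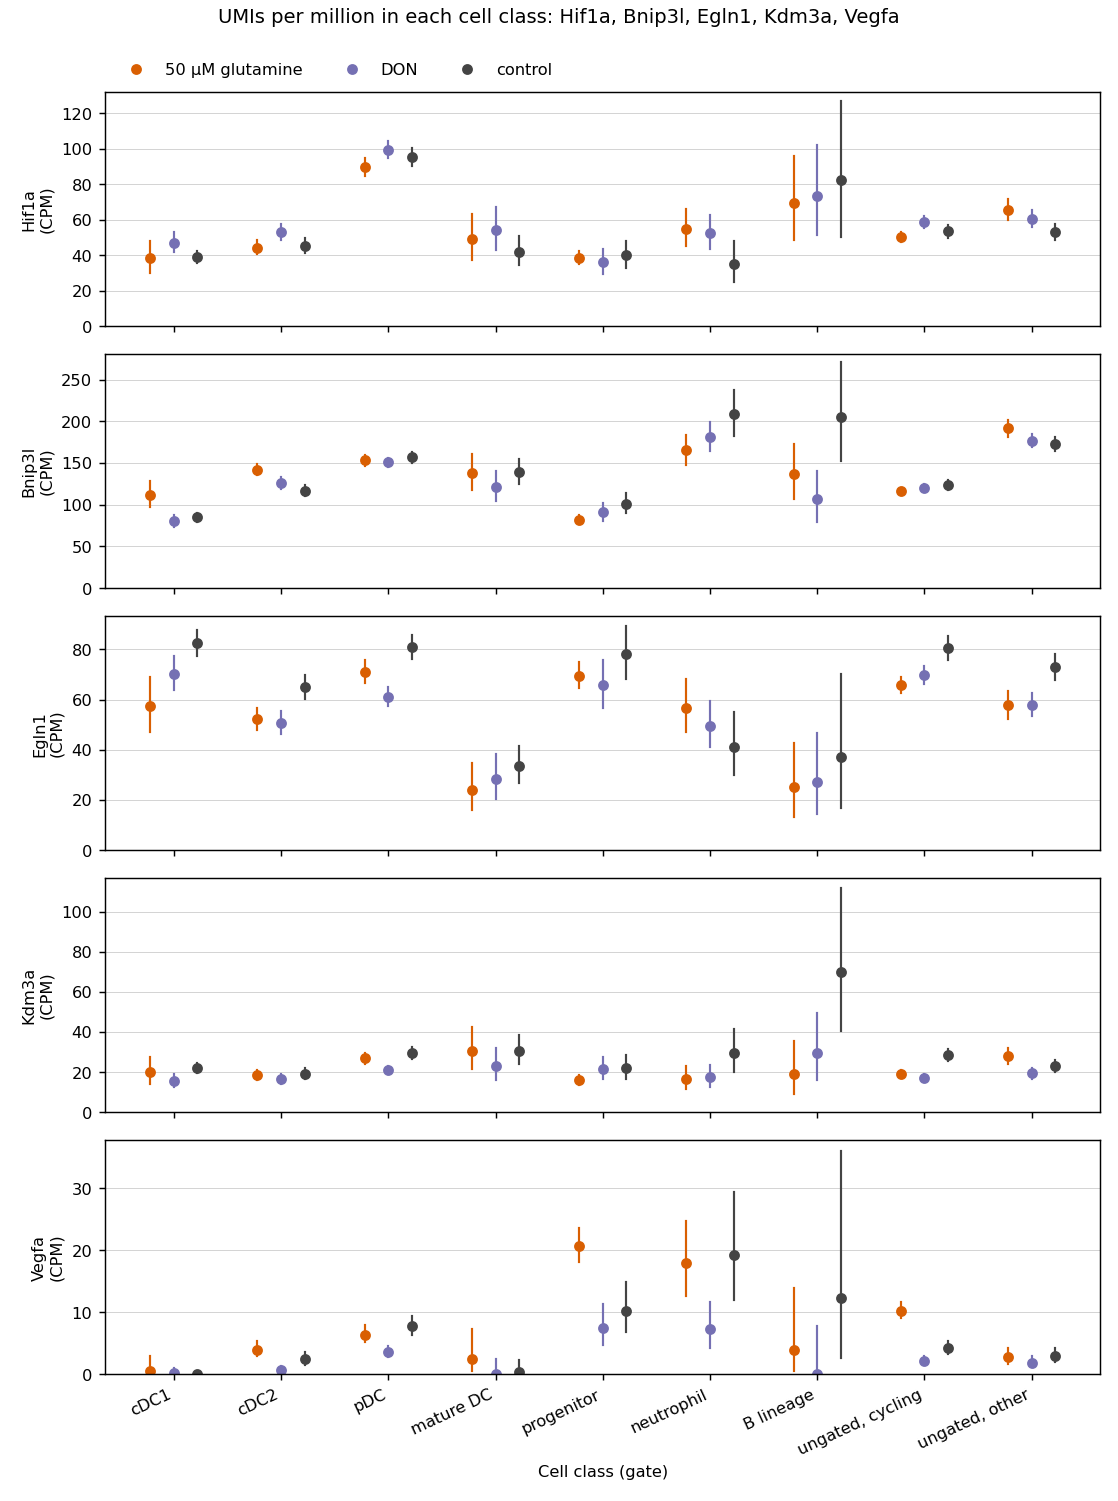
Level (CPM of the class, linear axes from 0) of Hif1a, Bnip3l, Egln1, Kdm3a and Vegfa in 9 cell classes, with a point for the 50 µM glutamine, DON and control libraries from left to right and lines for exact Poisson 95% intervals. Hif1a in pDC stands at 89.8, 99.3 and 95.2 CPM, and Vegfa in progenitors at 20.7, 7.46 and 10.2.

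Counted over the members that reached 5 CPM, 4 of 8 were called lower at 50 µM in cDC1, where 1.32% of all genes of that level were. The count was 5 of 9 in cDC2 (all genes 1.53%) and 5 of 10 in pDC (2.73%). With DON it was 3 of 8 in cDC1 (1.21%), 4 of 9 in cDC2 (0.431%) and 4 of 10 in pDC (0.655%). In these classes 0 members were called higher, where 8% of all genes were in cDC1, 5.34% in cDC2 and 9.4% in pDC at 50 µM, and 1.05%, 0.453% and 2.16% with DON. The median ratio of the members at 50 µM was -0.70 in cDC1, -0.86 in cDC2 and -0.78 in pDC, beside 0.10, 0.16 and 0.15 over all genes. With DON it was -0.41, -0.49 and -0.54, beside 0.09, 0.07 and 0.03. The members were listed on these contrasts, which share the control library, so nothing is read from the counts. The DON count in cDC1 was 1 after thinning each cell to 2000 UMIs, and the DON count in cDC2 was 2 with 20 CPM added.

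In the other classes the counts were 4 of 8 in mature DC at 50 µM (all genes 3.65%) and 3 of 8 with DON (2.93%), and in progenitors 5 of 10 (1.4%) and 4 of 10 (1.32%). Neutrophils had 6 of 10 at 50 µM (4.77%) and 6 of 10 with DON (4.72%), and B lineage cells, which had few UMIs, 7 of 10 (11.2%) and 6 of 10 (20.8%). Ungated cycling cells had 5 of 10 at 50 µM (2.65%) and 5 of 9 with DON (0.54%), and other ungated cells 5 of 9 (1.83%) and 4 of 9 (0.367%). The DON count of ungated cycling cells includes Kdm3a, at the 1.5-fold limit, and ranged from 3 to 5 over the settings. At 50 µM 1 member was called higher in progenitors, where 2.99% of all genes were, 1 in ungated cycling cells (2.07%) and 1 in neutrophils (30.1%). Scaling by median-of-ratios in place of class totals shifts a log2 ratio at 50 µM without added CPM by -0.15 in cDC1, -0.21 in cDC2 and -0.38 in neutrophils. With 5 CPM added the shift is smaller, most of all at low levels.

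The share of cells with an Ankrd37 UMI had the same order as its level. With each cell thinned to 2000 UMIs, 14 of 1891 pDC (0.740%) had one at 50 µM, 137 of 2217 (6.18%) with DON and 411 of 2369 (17.3%) in control. In cDC2 the shares were 1.02% at 50 µM, 5.81% with DON and 13.1% in control. In cDC1 they were 0 of 196 at 50 µM, where the limit of 3 counts allows a share of up to 1.53% and the exact interval up to 1.86%, 5.70% with DON and 10.4% in control. Without thinning, the pDC shares were 2.85% at 50 µM, 17.1% with DON and 33.99% in control. No class is known to lack Ankrd37, so free RNA was judged against mature DC, the lowest class in control. There 0 of 193 cells had a UMI at 50 µM, where 3 counts allow up to 1.55% and the exact interval up to 1.89%, with 1.57% with DON and 3.19% in control. Median depths were 5735, 6891 and 5818 UMIs in mature DC and 5732, 6484.5 and 5317.5 in pDC. The 50 µM shares of cDC2 and pDC lie within the limit in mature DC and are not read as expression.

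**Figure D4:**
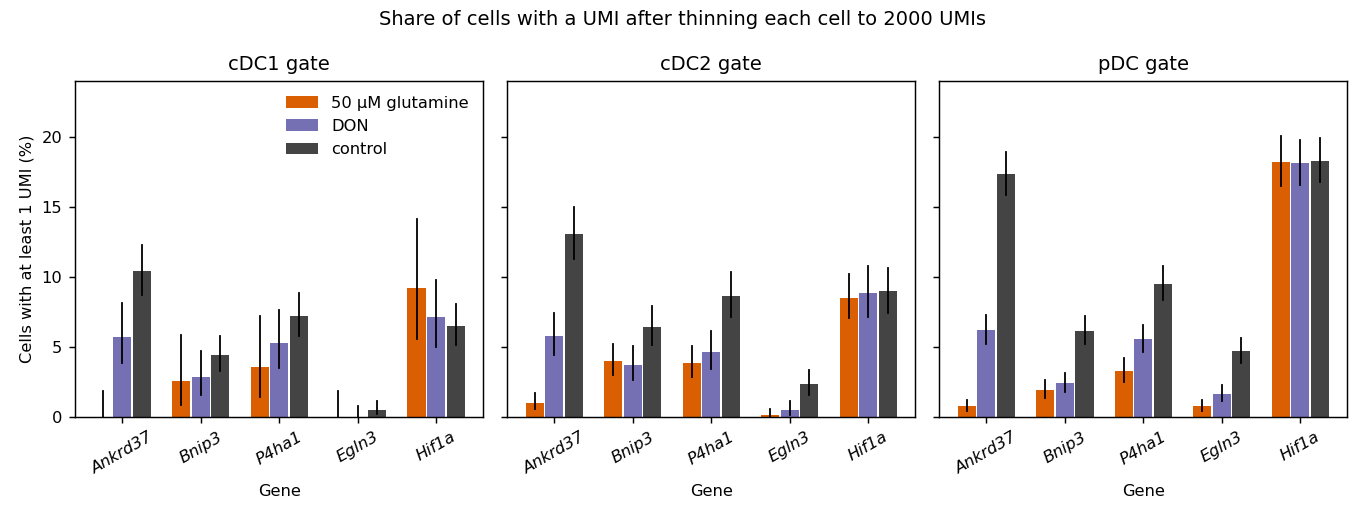
Percent of cells with at least 1 UMI of Ankrd37, Bnip3, P4ha1, Egln3 or Hif1a after thinning each cell to 2000 UMIs, in the cDC1, cDC2 and pDC gates. Bars (from 0) stand for the 50 µM glutamine, DON and control libraries from left to right with exact binomial 95% intervals; in pDC Ankrd37 is at 0.740%, 6.18% and 17.3%, and Hif1a at 18.2%, 18.1% and 18.3%.

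Within the control library several members were higher in the cells that had an Ankrd37 UMI. Among control pDC thinned to 2000 UMIs, the 411 cells with one had 71.8 CPM (54.6 to 92.6) of Egln3, and the 1958 cells without had 17.6 CPM (13.7 to 22.3). That is a ratio of 4.07 (2.83 to 5.85). It was 3.001 (2.15 to 4.15) for Bnip3, 2.38 (1.81 to 3.11) for P4ha1, 1.95 (1.54 to 2.46) for Egln1 and 1.22 (1.11 to 1.33) for Mif. Kdm3a was at 1.66 (1.06 to 2.54), Bnip3l at 1.22 (1.01 to 1.46) and Vegfa, from 14 and 29 UMIs, at 2.30 (1.12 to 4.49). Hif1a stood at 1.08 (0.847 to 1.36) and the cytoskeletal gene Actb at 0.928 (0.901 to 0.955). Slc16a3, which encodes a lactate exporter, stood at 3.67 (2.33 to 5.76), and Pgk1, a glycolytic enzyme gene, at 1.12 (1.002 to 1.26). Of the other genes of glucose use, Slc2a1 was at 1.81 (1.19 to 2.68) and Ldha at 1.696 (1.499 to 1.92). Aldoa was at 1.59 (1.45 to 1.75) and Aldoc at 1.15 (0.824 to 1.58). In control cDC2 the ratio was 4.56 (2.07 to 9.73) for Egln3, 2.60 (1.57 to 4.19) for Bnip3 and 1.06 (0.910 to 1.23) for Mif, whereas Pgk1 was lower at 0.802 (0.650 to 0.981) and the pDC marker Siglech at 0.339 (0.122 to 0.760). Hif1a was at 0.864 (0.457 to 1.51) in control cDC2. Slc16a3 was at 3.54 (2.11 to 5.801) there and Slc2a1 at 2.12 (1.25 to 3.48). Aldoa was at 1.15 (1.01 to 1.32), Aldoc at 1.05 (0.654 to 1.62) and Ldha at 1.04 (0.862 to 1.24). In control cDC1 120 cells had an Ankrd37 UMI and 1033 had none. There the ratio was 3.62 (1.89 to 6.66) for Bnip3, 2.02 (1.07 to 3.58) for Hif1a, 1.90 (1.25 to 2.80) for Egln1 and 1.01 (0.856 to 1.18) for Mif. All these control cells share 1 library, so the ratios describe it and are no test. Siglech was at 0.895 (0.840 to 0.953) in the control pDC. In the DON library the ratios in pDC were 2.94 (1.002 to 7.15) for Egln3, 2.62 (1.52 to 4.29) for P4ha1, 1.24 (0.325 to 3.38) for Bnip3 and 0.833 (0.437 to 1.45) for Egln1, and in cDC2 Bnip3 stood at 0.926 (0.108 to 3.60). In the DON pDC Pgk1 was at 1.62 (1.32 to 1.97) and Mif at 1.53 (1.302 to 1.79). Ldha was at 1.47 (1.18 to 1.82) and Aldoa at 1.39 (1.15 to 1.66) there. Slc2a1 was at 1.46 (0.565 to 3.15), Aldoc at 1.27 (0.592 to 2.41) and Slc16a3 at 1.27 (0.0296 to 8.55).

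**Figure D5:**
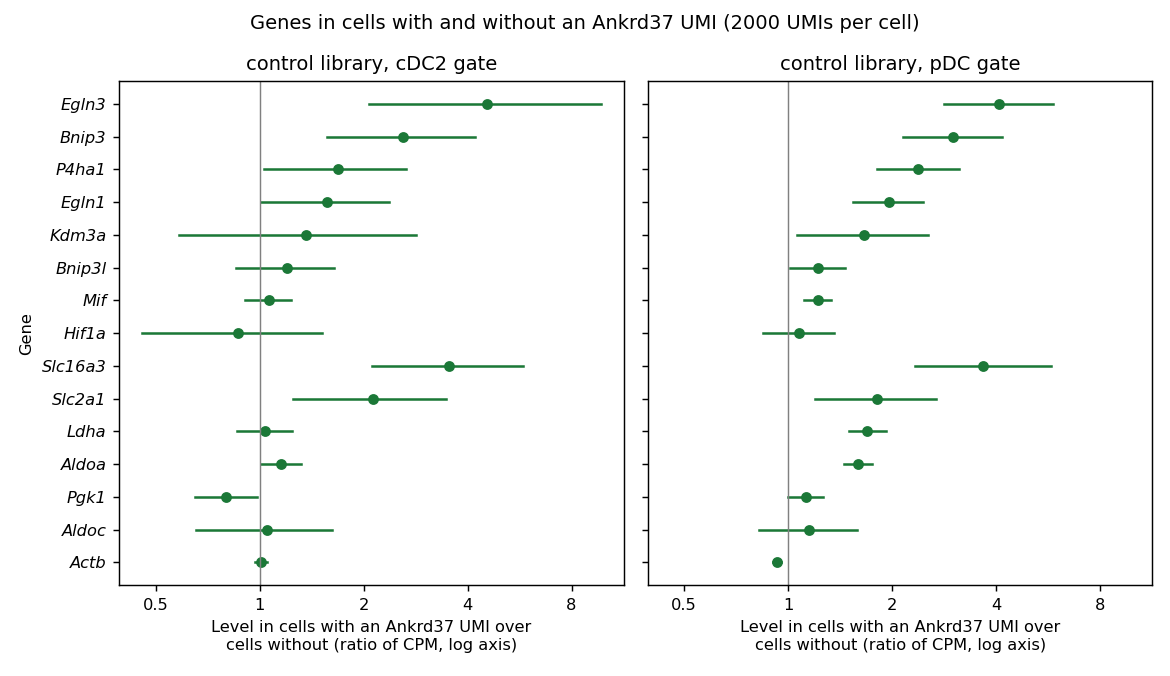
Ratio of CPM (log axis) of 15 genes in control cells with an Ankrd37 UMI over control cells without one, each thinned to 2000 UMIs, for the cDC2 gate (left) and the pDC gate (right), with lines for 95% intervals. In pDC the Egln3 ratio is 4.07 (2.83 to 5.85), while that of Hif1a is 1.08 (0.847 to 1.36). The cDC1 gate, where the Hif1a ratio is 2.02 (1.07 to 3.58), is not shown, and Vegfa is not among the 15 genes.

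Over 10 gates and 3 libraries (30 points), the genes whose log2 level, centred within each class, was most like that of Ankrd37 were Pgam1 (Pearson r 0.90), Gpi1 (0.89), Tpi1 (0.88), Aldoa (0.86), Aldoc (0.86) and Tmsb4x (0.85). Among 9366 genes, Mif was ranked 11, Bnip3 12, Egln3 19 and P4ha1 35, whereas Egln1 was ranked 597, Hif1a 1387 and Vegfa 1867. The points share 3 libraries and their depth, and the gates include small classes. Centring leaves only the differences between libraries, on which the members were listed, so nothing is read from their ranks. The likeness depended on the centring. Without it r was 0.31 for Pgam1, 0.37 for Gpi1, 0.46 for Tpi1, 0.37 for Aldoa, 0.63 for Aldoc and -0.10 for Tmsb4x, and Prelid1 came first at 0.67. Mif was then ranked 6, Egln3 32, P4ha1 44 and Bnip3 340.

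Of the regulators of the factor, such as Arnt, Vhl and Cul2, 9 of 12 reached 5 CPM and 0 were called in either direction in cDC1, cDC2 or pDC, with median ratios of -0.01, 0.08 and 0.04 at 50 µM. Of all genes at that level 1.32%, 1.53% and 2.73% were lower and 8%, 5.34% and 9.4% higher at 50 µM. With DON 1.21%, 0.431% and 0.655% were lower and 1.05%, 0.453% and 2.16% higher. With shares this small, nothing is read from a count of 0 among 9. In cDC1 Vhl, which targets Hif1a for destruction, had 49.1 CPM (39.8 to 59.96) at 50 µM and 37.99 CPM (34.6 to 41.6) in control. Arnt, the partner subunit, had 24.04 CPM (17.7 to 31.97) at 50 µM and 17.5 CPM (15.2 to 19.9) in control there.

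For targets that serve glucose use, the counts at 50 µM were 13 of 20 lower and 1 higher in cDC1, 10 of 20 lower and 0 higher in cDC2 and 15 of 20 lower and 0 higher in pDC, with median ratios of -0.75, -0.57 and -0.92. Over all genes at that level 1.32% were lower and 8% higher in cDC1 (median 0.10), 1.53% and 5.34% in cDC2 (0.16), and 2.73% and 9.4% in pDC (0.15). With DON the list counts were 3 of 20 lower and 0 higher in cDC1, 4 of 20 lower and 0 higher in cDC2 and 7 of 20 lower and 0 higher in pDC, with medians of -0.32, -0.30 and -0.44. With DON 1.21% of all genes were lower and 1.05% higher in cDC1, 0.431% and 0.453% in cDC2, and 0.655% and 2.16% in pDC. Slc16a3 was about as low with DON as at 50 µM in cDC1, at 4.60 CPM at 50 µM, 5.66 with DON and 25.8 in control. Tpi1, the gene of triosephosphate isomerase, had 54.5 CPM at 50 µM, 75.2 with DON and 163 in control in pDC. Pdk1, whose product holds pyruvate back from mitochondrial oxidation, had 14.8 CPM (13.04 to 16.8) with DON and 37.5 CPM (34.4 to 40.8) in control in pDC. The member of the list called higher was Slc2a3, a glucose transporter gene, with 38.4 CPM (30.2 to 48.1) at 50 µM and 4.87 CPM (3.72 to 6.27) in control in cDC1; its ratio was -0.34 in cDC2 and -0.57 in pDC.

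Targets outside glycolysis were called in both directions. At 50 µM the counts were 0 of 16 lower and 3 higher in cDC1 (median -0.02), 3 of 17 lower and 1 higher in cDC2 (-0.08) and 3 of 17 lower and 1 higher in pDC (-0.23). Of all genes 8% were higher in cDC1, 5.34% in cDC2 and 9.4% in pDC. Lower calls covered 1.32%, 1.53% and 2.73% of all genes. With DON the list counts were 0 of 13 lower and 1 higher in cDC1, 1 of 17 lower and 0 higher in cDC2 and 1 of 16 lower and 0 higher in pDC, beside 1.21%, 0.431% and 0.655% of all genes lower. Higher calls with DON covered 1.05%, 0.453% and 2.16% of all genes. Ddit4, which encodes an inhibitor of mTORC1 signalling, had 6.75 CPM at 50 µM, 11.99 with DON and 23.97 in control in pDC. Tfrc, the transferrin receptor gene, was higher, with 110 CPM (104 to 117) at 50 µM and 58.2 CPM (53.7 to 63.01) in control in cDC2 and 62.3 CPM (56.2 to 68.95) with DON and 34.6 CPM (31.4 to 38.02) in control in cDC1. Ndrg1 had 64.4 CPM at 50 µM, 28.3 with DON and 34.6 in control in cDC1. Its ratio with DON was -0.25 in cDC1, -0.26 in cDC2 and -0.43 in pDC.

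Partners and relatives of the members gave 0 of 10 lower and 3 higher in cDC1, 1 of 9 lower and 2 higher in cDC2 and 2 of 11 lower and 1 higher in pDC at 50 µM (medians 0.13, 0.29 and 0.11). These stand beside 1.32% lower and 8% higher of all genes in cDC1, 1.53% and 5.34% in cDC2, and 2.73% and 9.4% in pDC. Cd74, the Mif receptor that also chaperones MHC class II, had 2356 CPM at 50 µM, 3016 with DON and 4802 in control in pDC. Cxcr4, a chemokine receptor gene that Mif can also engage, had 51.5 CPM at 50 µM, 31.6 with DON and 22.8 in control there. With DON 1 of 10 was called lower in pDC and 0 in cDC1 or cDC2, and 0 were called higher in these classes. Of all genes with DON 1.21% were lower and 1.05% higher in cDC1, 0.431% and 0.453% in cDC2, and 0.655% and 2.16% in pDC. Of 7 other mitophagy factors at 5 CPM, 0 were called lower in these classes, with medians at 50 µM of 0.02, 0.03 and 0.03. The shares of all genes just given stand beside this count too, so nothing is read from the 0. Bcl2, which restrains cell death, was the 1 called higher in pDC and in cDC2 under each treatment, and 0 were in cDC1. It had 174 CPM at 50 µM, 103 with DON and 57.1 in control in pDC. In cDC2 it had 81.6 CPM at 50 µM, 66.7 with DON and 42.8 in control, where the DON ratio of 0.585 lay at the 1.5-fold limit. Fundc1, another mitophagy receptor gene, had 29.7 CPM (26.9 to 32.8) at 50 µM and 30.9 CPM (28.1 to 33.96) in control in pDC.

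Other values moved with the libraries as well, beside those given for neutrophils and progenitors. In cDC2 the 8 pDC markers summed to 227 CPM at 50 µM, 134 with DON and 110 in control (0, 1 and 1 of them at 0). In cDC2 the 9 neutrophil markers summed to 145 CPM at 50 µM, 110 with DON and 72.9 in control (0, 0 and 0 of them at 0), and in pDC the 9 neutrophil markers summed to 108 CPM at 50 µM, 89.6 with DON and 74.9 in control (0, 0 and 0 of them at 0). In cDC1 the 9 cDC2 markers summed to 198 CPM at 50 µM, 109 with DON and 77.4 in control (1, 1 and 0 of them at 0). Median mitochondrial percentages in pDC were 4.78 at 50 µM, 4.72 with DON and 4.46 in control. Their part in the results was not tested. Among pDC at or below the median share of cell cycle UMIs, Ankrd37 had 5.48 CPM at 50 µM, 30.6 with DON and 121 in control, and among those above it 4.35, 38.03 and 112.

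Reads of overlapping genes cannot be told apart where strand use in counting is not given in the sources used here. Ankrd37 overlaps Ufsp2 and Lrp2bp on the other strand. Ufsp2 had 56.7 CPM at 50 µM, 72.9 with DON and 77.4 in control in pDC, and Lrp2bp at most 0.40 CPM in cDC1, cDC2 and pDC. Bnip3 overlaps Gm45507, which had 0 UMIs in these classes, and Hif1a overlaps Gm15283, which had 3.41 CPM at 50 µM, 3.31 with DON and 5.39 in control in pDC. By name, Mif has 2 pseudogenes and Bnip3l 1, and their levels are uncertain to that extent.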

How the data were processed

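RNA of single cells was captured with 10x 3' v3 chemistry, per the labels' protocols. The authors deposited raw UMI counts per gene and barcode. Cell Ranger is given as 6.0.0 per the file headers and as 3.1.0, with mm10, per the submitters' processing notes; annotation and strand use are not given in the sources used here. Gene positions are from GENCODE vM21 (GRCm38), which held 99.8% of the IDs.

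Barcodes below 1000 UMIs or 500 genes, or above 10% mitochondrial UMIs, were dropped. Doublets were called in each library by the Scrublet method in own code and dropped: 3.13% at 50 µM, 2.22% with DON and 8.27% in control, where 34.8%, 25.7% and 60.4% of simulated doublets passed the threshold. Gates used 6 to 9 markers each, and cells passing more than 1 gate (812, 807 and 549) were left out. UMIs were summed by class and library. Intervals are exact Poisson for levels, conditional binomial for ratios and Clopper-Pearson for shares; a count of 0 is given the limit of 3 counts. The computation was tested on simulated data.

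The members, lists and gates were chosen with earlier results of these data known, and the number of markers and the minimum of 50 cells were set with the data in hand. Named beside all members were up to 4 genes of each list with the largest absolute ratio in cDC1, cDC2 and pDC for each treatment, at 20 CPM or more, and the 6 genes most like Ankrd37. The genes compared between cells with and without an Ankrd37 UMI, and the overlapping genes, were chosen outside this rule. Alternatives changed the added CPM, fold, level minimum, scaling, averaging, doublets, gates, clusters, depth, mitochondrial limit, cycling cells, thinning and centring. Python 3.11.15, numpy 2.4.6, pandas 2.3.3, scipy 1.17.1, scikit-learn 1.9.0, igraph 0.11.9, leidenalg 0.10.2 and matplotlib 3.10.9 were used.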

Additional observations from a re-analysis of the deposited data

Results flagged for a closer look

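Bnip3l was picked out because its difference at 50 µM had opposite directions in different classes. Its log2 ratio over control was 0.38 in cDC1 (112 CPM at 50 µM and 84.8 in control) and -0.57 in B lineage cells (137 CPM at 50 µM and 205 in control, from 71 and 50 UMIs). It was also below control in progenitors (-0.29) and neutrophils (-0.33). With 1 library in each group, the difference between the classes was not tested.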

How the results depend on the processing

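Each result was recomputed with 1 choice changed at a time. The number of members called lower at 50 µM ranged over the settings from 3 to 5 in cDC1, 4 to 5 in cDC2 and 5 to 6 in pDC. With DON it ranged from 1 to 3 in cDC1, 2 to 5 in cDC2 and 3 to 6 in pDC. The DON count in cDC1, 3, was 1 with cells thinned to 2000 UMIs. The DON count in cDC2, 4, was 2 with 20 CPM added and 2 at a 2-fold limit. Ankrd37 was past 1.5-fold in cDC1, cDC2 and pDC under both treatments in every setting run for its ratio (11 in cDC1 and 10 in each of the others), between -3.75 and -1.54 in cDC1, -3.94 and -2.04 in cDC2 and -4.40 and -2.48 in pDC at 50 µM. Of the log2 ratios of all members under all settings, 1790 stayed within the counting interval, 229 moved and 1 reversed. Only a ratio called at 1.5-fold could count as reversed. Sign changes of other ratios are among those that stayed or moved and were not counted. The 1 reversed was Kdm3a in neutrophils with DON. That ratio was 0.0020 with cells thinned, -0.61 as reported and between -0.84 and -0.34 in the other settings. Without centring each of the 6 leading likenesses to Ankrd37 was lower: Tmsb4x was at -0.10 and the others between 0.31 and 0.63, and Bnip3 was ranked 340 in place of 12. Where classes came from clusters, 1 cluster of 1077 cells led by mitotic genes counted among the other ungated cells. The causes were not tested. Depth limits cDC1 at 50 µM, with 11 Ankrd37 UMIs, and B lineage cells. No paired analysis was possible because each group has 1 library.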
